A study of Mus musculus with 6 samples.

Results

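The mitochondrial ribosomal protein genes are the nuclear genes whose names begin with Mrpl or Mrps followed by a number. They were taken as every gene on the array with such a name, on non-control probes present on all 6 arrays, and where several probes carried one name, the brightest on average stood for the gene. The rule gave 76 of 34812 genes, 47 named for the large subunit (Mrpl) and 29 named for the small subunit (Mrps). All 76 were kept in the account below, and each count names how many of them were well above background on the arrays compared.

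The mitochondrial ribosome translates the few messages of the mitochondrial genome, which encode core proteins of the respiratory chain. All of its proteins are made in the cytosol from nuclear genes and imported. Many descend from the proteins of the bacterial ribosome, while others were added in the mitochondrial lineage. Names do not always give the place in the particle: the proteins of Mrps30 and Mrps18a sit in the large subunit, and the product of Mrps36 is now known as a component of the 2-oxoglutarate dehydrogenase complex.

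RNA came from bone marrow-derived macrophages of LysM-Cre mice on an Apoe-/- background, aged 6 to 8 weeks and male per the labels, after 7 days of culture with L929-conditioned medium. LysM-Cre drives Cre recombinase in myeloid cells. The Dicer WT cells were LysM-Cre/Dicer wt/wt/Apoe-/- and the Dicer KO cells LysM-Cre/Dicer flox/flox/Apoe-/-, so both genotypes carried Cre and lacked functional Apoe. Dicer is the enzyme that cuts miRNA precursors, and AGO2 is an Argonaute protein that carries miRNAs to target transcripts. For each genotype there were 3 RNA fractions: the unprecipitated lysate (input), the RNA pulled down by anti-AGO2 beads (AGO2-RIP) and that pulled down by beads with non-specific IgG (IgG-RIP). All 6 fractions had an array of their own, so there was 1 sample per group, and whether the fractions of a genotype came from the same culture is not stated in the labels used here. With 1 array per group, the differences between arrays below have no replicate check and no p-value.

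Values are log2 of the processed signal minus the array's 75th percentile, so a level of 0 is the 75th percentile of that array and a difference of 1 is a 2-fold difference. Equal cDNA mass was labelled for every array, so the values are relative abundances, and fewer cells of a type and less RNA per cell cannot be told apart. Spots printed 10 times on an array put the measuring noise of a difference at 0.20 to 0.24 log2, a figure that holds none of the spread from culture, pull-down or amplification. Of the 59305 non-control spots per array, 37.6% to 46.3% were well above background and 0 were saturated. Xist was well above background on 3 of 3 WT and 0 of 3 KO arrays, and the Y-linked Ddx3y and Eif2s3y on 0 of 3 WT and 3 of 3 KO arrays, so the sex of the cells goes with genotype, against the labels, and so does the row of the slide. Lyz2, the gene at whose locus LysM-Cre is inserted, read -2.19, -4.30 and -1.16 in WT input, AGO2-RIP and IgG-RIP, the first 2 not well above background, and 5.67, 3.56 and 4.11 in KO, though the labels give LysM-Cre for both genotypes. Genotype, sex, slide row and what goes with this difference in Lyz2 cannot be told apart in any comparison of KO with WT. The column of the slide goes with fraction in both genotypes. Fraction and slide column therefore cannot be told apart in any comparison of fractions, the fits below included. Dicer1 read 0.22 in WT and -0.55 in KO input and 0.93 and 0.94 in AGO2-RIP, and in IgG-RIP 0.18 in WT and dim in KO, so it was above background on 2 of 3 KO arrays, and whether its probe lies in the deleted part is not stated in the labels. Of 10 macrophage markers, Lyz2 among them, 8 were above background in WT input and 9 in KO input. Of 4 B cell markers 0 were, of 4 T cell markers 0 in WT and 1 in KO, of 5 fibroblast markers 0 and 1, of 6 neutrophil markers 2 and 2, and of 4 erythroid markers 1 and 1. The summed macrophage level was 9.91 to 10.69 over the 6 arrays and the summed erythroid level -0.53 to 1.47, and the part of other cells in the results was not tested.

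The probes are 60 bases long and annotated on mm9. The cDNA was cut with AluI, whose site is AGCT, and RsaI, whose site is GTAC, and 30 of the 76 probes hold such a site (39.5%, against 33.7% of the 34812 genes). The median GC content of the probes was 43.33%, equal to that of all genes. The probes of the 7 members with the largest measured AGO2-RIP minus IgG-RIP differences in WT, and of 2 members that behaved unlike the rest, are shown with these sites in capitals, 5′ to 3′ as on the array.
Mrpl53: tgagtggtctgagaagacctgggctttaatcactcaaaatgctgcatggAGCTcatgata
Mrpl44: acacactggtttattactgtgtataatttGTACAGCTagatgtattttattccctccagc
Mrpl34: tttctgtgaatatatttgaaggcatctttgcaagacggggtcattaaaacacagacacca
Mrpl54: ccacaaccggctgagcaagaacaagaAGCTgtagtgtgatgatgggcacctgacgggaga
Mrpl36: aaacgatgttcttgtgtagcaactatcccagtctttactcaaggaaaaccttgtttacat
Mrps24: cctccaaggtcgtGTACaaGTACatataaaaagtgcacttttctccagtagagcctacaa
Mrps18b: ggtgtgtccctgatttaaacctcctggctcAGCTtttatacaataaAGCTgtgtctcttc
Mrps10: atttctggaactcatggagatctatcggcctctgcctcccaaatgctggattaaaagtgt
Mrpl14: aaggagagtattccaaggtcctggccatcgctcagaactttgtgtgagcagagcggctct

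In mm9, the Mrpl53 probe lies on chromosome 6 at 83059717 to 83059776 and starts at base 410 of its transcript. The Mrpl44 probe lies on chromosome 1 at 79777892 to 79777951, the Mrpl34 probe on chromosome 8 at 73989526 to 73989585 and the Mrpl36 probe on chromosome 13 at 73469515 to 73469574, all on the plus strand. The Mrpl54 probe lies on chromosome 10 at 80727584 to 80727643, on the minus strand. The Mrps24 probe lies on chromosome 11 at 5604421 to 5604480 and the Mrps18b probe on chromosome 17 at 36047331 to 36047390, both on the minus strand. The Mrps10 probe lies on chromosome 17 at 47515561 to 47515620 and the Mrpl14 probe on the same chromosome at 45835317 to 45835376, on the plus strand. Exon and UTR positions were not analysed here. Of the 76 probes, 9 cover more than 60 bases of the genome and so span an intron. The probes of 3 members share a run of 20 bases with a probe under another name: Mrpl30, Mrps33 and Mrps36, whose signals may therefore include other transcripts.

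All 76 genes were well above background on both input arrays. Fewer were so after precipitation: 75 and 67 on the AGO2 and IgG arrays of WT, 71 and 68 on those of KO, and 63 genes (39 large, 24 small) were above background on all 6. Over these 63 genes the WT median level was 3.01 in input, stood at 2.02 after AGO2 precipitation and at 1.27 after IgG precipitation. In KO the medians were 2.85, 1.62 and 1.24. The median thus stood highest in input, lower after AGO2 precipitation and lowest after IgG precipitation in both genotypes, and the WT step between the precipitates (from 2.02 to 1.27) was wider than the KO step (from 1.62 to 1.24). The 12389 genes above background on all 6 arrays stayed closer together, with array medians between 1.40 and 1.80.

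**Figure D1:**
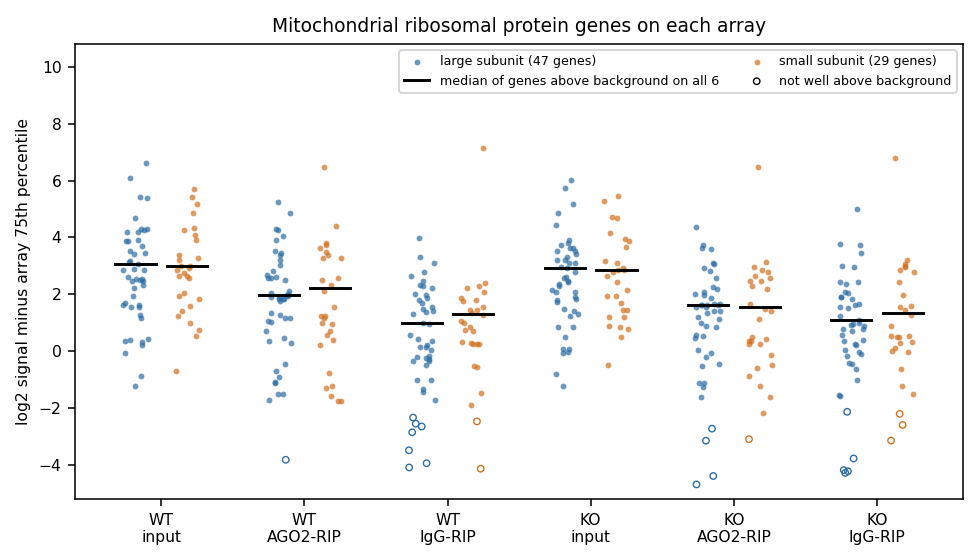
Level of each mitochondrial ribosomal protein gene on each of the 6 arrays (log2 signal minus the array's 75th percentile, y axis), with 47 large subunit genes in blue, 29 small subunit genes in orange, open circles for genes not well above background and bars for each subunit's median over the genes measured on every array (39 large, 24 small). These medians step down from input to AGO2-RIP to IgG-RIP, and the spread of the points within each array is wider than these steps.

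The first comparison asks what went with loss of Dicer in the input RNA. No member reached a 2-fold difference in either direction (0 higher and 0 lower of 76), where 1.02% of the 14669 measured genes passed 2-fold upward in KO and 1.72% downward. The small differences leaned one way: 57 of 76 members lay below 0, with a median of -0.25 (large -0.25, small -0.26), against a median of -0.08 over all genes. The median is close in size to the spot noise of 0.20, which is that of 1 probe's difference and not of a median over genes. Without the filter on dim probes the members' median was 0.08 above that of all genes. Among all genes past 2-fold 37.2% were higher in KO, and 53.9% with the scaling on probes above background on all arrays, where the count of members past 2-fold was still 0. The medians were -0.52 for the cytosolic ribosomal protein genes and -0.27 for the nuclear respiratory chain genes.

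Among the large subunit genes the lowest KO minus WT input values were those of Mrpl55, a homologue of a bacterial large subunit protein, and Mrpl33, likewise of bacterial descent. Mrpl55 read 3.44 in WT and 2.47 in KO input, a difference of -0.97, and Mrpl33 read 6.63 and 5.75, a difference of -0.87. Mrpl48 and Mrpl52 differed by -0.68 and -0.66. At the other end stood Mrpl9 (0.48), Mrpl46 (0.27), Mrpl44 (0.26) and Mrpl15 (0.14). Among the small subunit genes Mrps16, whose mutation causes a human disorder of mitochondrial translation, was lowest, with 2.05 in WT and 1.21 in KO, a difference of -0.84. Mrps17 (-0.82), Mrps24 (-0.71) and Mrps26 (-0.71) followed. The highest were Mrps5 (0.34), Mrps11 (0.27), Mrps35 (0.23) and Mrps9 (0.21). Mrps22 and Mrps34, also mutated in human mitochondrial disease, differed by 0.01 and 0.09. Mrps12, a protein of the decoding centre, differed by -0.43. Mrps7 differed by -0.51, Mrpl3, which reaches towards the peptidyl transferase centre, by -0.12, and Mrpl45, which holds the ribosome to the inner membrane, by -0.41. The 3 stalk genes Mrpl10, Mrpl11 and Mrpl12 differed by -0.27, -0.24 and -0.39.

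The comparison of AGO2-RIP with IgG-RIP asks which transcripts came down with AGO2 beyond what control beads carried. In WT, 67 members were measured on both arrays. Their median difference was 0.81, or 1.76-fold higher in AGO2-RIP, where the 15221 measured genes had a median of -0.24, a gap of 1.06. Of the 67, 49 lay above 0 (73.1%, against 43.2% of all genes). At least 2-fold higher were 32 (47.8%), against 20.3% of all genes, and at least 2-fold lower were 3 (4.48%), against 22.2%. The nuclear respiratory chain genes had a median of 0.87 (33 of 75 at least 2-fold higher) and the cytosolic ribosomal protein genes one of 0.14 (13 of 76). The mitochondrial ribosomal protein genes thus sat near the respiratory chain genes and above the cytosolic ribosomal protein genes. No test of the difference between the lists was run.

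The zero point of this comparison moves with the scaling. Among all genes past 2-fold, 47.8% were higher in AGO2-RIP under the main scaling, 28.9% when arrays were scaled on the probes above background on all arrays (median of all genes -0.62), 66.4% with the array median (0.06) and 68.5% after normexp (-0.13). The members at least 2-fold higher then numbered 26, 38 and 33 of 67, and those at least 2-fold lower 9, 2 and 1. The share of all genes past 2-fold under these other scalings and normexp is not given, here or for the comparisons below. Such counts therefore show how far the number of members moves, without a background to set them beside. The member median minus the median of all genes cannot move with a scaling that subtracts 1 constant per array. It ranged from 1.00 to 1.74 over the 7 alternatives that can move it.

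In KO the same comparison gave smaller values. Over the 67 members measured there, the median was 0.19, or 1.14-fold, against -0.19 over 15655 genes, a gap of 0.38. At least 2-fold higher were 10 members (14.9%), against 10.5% of all genes, and at least 2-fold lower were 4 (5.97%), against 9.92%. Above 0 lay 37 of 67 members (55.2%, against 39.4%). The share of members past 2-fold was thus near the background in KO. After normexp background correction 4 members were at least 2-fold higher, and 25 (37.3%) were at least 1.5-fold higher, against 18.5% of all genes. Of all genes past 2-fold 51.3% were higher, and 67.5% after normexp.

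**Figure D2:**
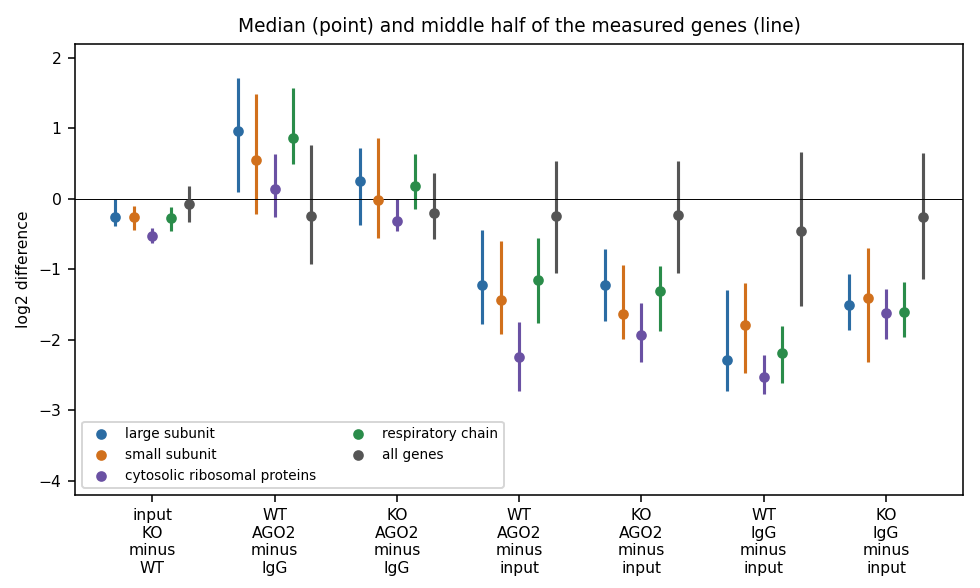
Median log2 difference (points) and interquartile range of the measured genes (lines) for each comparison on the x axis, for the large subunit, the small subunit, cytosolic ribosomal protein genes, nuclear respiratory chain genes and all genes. In WT AGO2-RIP minus IgG-RIP the large and small subunit medians are 0.96 and 0.55 while that of all genes is -0.24, and in KO they are 0.25 and -0.02.

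By subunit name, the 40 measured large subunit genes had a WT median of 0.96, with 20 at least 2-fold higher and 1 lower, and the 27 small subunit genes had 0.55, with 12 higher and 2 lower. In KO the medians were 0.25 (42 genes, 7 higher, 2 lower) and -0.02 (25 genes, 3 higher, 2 lower). The order of the subunits was not stable. Restricted to the 63 genes measured on every array, the WT difference between the medians was -0.00, and with the median of each gene's probes in place of the brightest it was -0.19. In KO it was -0.10 with the median of probes. When Mrps30 and Mrps18a were counted with the large subunit, where their proteins sit, and Mrps36 was left out, the WT medians were 0.86 for the large and 0.66 for the small subunit. No difference between the subunits that held under these choices was found in either genotype. The 40 measured members with a bacterial homologue had a WT median of 0.86 and the 27 without one had 0.79, and in KO they had 0.52 (41 genes) and -0.11 (26 genes).

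The largest difference was that of Mrpl53, a large subunit protein that bacteria lack. In WT it read 3.41 before precipitation, 4.86 with AGO2 and -0.22 with IgG, a difference between the precipitates of 5.08 or 33.8-fold. In KO it read 3.43, 3.75 and 1.56, a difference of 2.19 or 4.58-fold. Input levels of Mrpl53 were thus alike in the genotypes, while AGO2-RIP stood above IgG-RIP and above input in both.

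Mrpl44, a large subunit protein with a fold related to that of RNase III enzymes, also stood above both references. In WT its input level was 1.55, its AGO2-RIP level 4.29 and its IgG-RIP level 0.43, and the same 3 levels were 1.81, 2.82 and 0.97 in KO. AGO2-RIP exceeded IgG-RIP by 3.87 (14.6-fold) in WT and by 1.84 (3.59-fold) in KO, and input by 2.75 and 1.01. No other large subunit gene was as far above input in either genotype.

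Mrpl34, of bacterial descent, had 10 spots on each array. Its mean ± SD over the spots was 4.19 ± 0.06 in WT input, 3.38 ± 0.07 in WT AGO2-RIP and -0.15 ± 0.11 in WT IgG-RIP. In KO it was 3.72 ± 0.10, 2.17 ± 0.08 and 0.58 ± 0.13. The spots measure the same labelled cDNA, so the SD covers spot noise and not the samples. AGO2-RIP exceeded IgG-RIP by 3.53 in WT and 1.59 in KO, and lay below input in both.

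Mrpl36, also of bacterial descent, read 2.34, 2.62 and -0.34 in WT input, AGO2-RIP and IgG-RIP and 1.84, 1.63 and -1.01 in KO. Its AGO2-RIP minus IgG-RIP differences, 2.96 and 2.64, were of like size in the genotypes. Mrpl54, which bacteria lack, differed more between them. It read 3.72, 1.96 and -1.02 in WT and 3.21, 2.09 and 1.90 in KO, giving 2.99 in WT and 0.19 in KO. The AGO2-RIP levels of Mrpl54 were alike in the genotypes, and its IgG-RIP level was 7.57-fold higher in KO.

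Of the small subunit genes Mrps24, a homologue of a bacterial protein at the messenger entry, had the largest WT difference. It read 1.93, 1.55 and -1.88 in WT input, AGO2-RIP and IgG-RIP and 1.22, 0.26 and -1.49 in KO, so AGO2-RIP exceeded IgG-RIP by 3.43 and 1.75. Mrps18b followed, with 3.38, 4.39 and 1.56 in WT and 2.79, 2.96 and 1.97 in KO, or 2.83 and 1.00. Mrps18b has 3 probes, and the other probes gave 2.97 and 2.93 in WT and 3.85 and 1.33 in KO. The sign was the same for all 3, and the KO size differed between probes.

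Mrps12 had differences of 2.30 in WT and 0.70 in KO, and Mrps36 of 1.93 and 0.59. Of the 3 stalk genes, Mrpl10 had 1.49 and 0.75, Mrpl11 had 1.77 and -0.51, and Mrpl12 had 1.67 and 0.52. Mrpl3 had 1.90 and 1.22. Mrps34 had 1.43 and -0.54, Mrps22 had 0.55 and -0.59, Mrps7 had -0.33 and 0.34, and Mrps16 had -0.04 and -0.66. Mrps5 was dim on both IgG-RIP arrays and its AGO2-RIP level exceeded them at least 1.29-fold in WT and at least 2.55-fold in KO. Of the role genes measured in both genotypes, Mrpl45 lay below 0 in both, at -0.81 and -0.27, as did Mrps16.

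Some members had only a bound because 1 array was dim. Mrpl43, which bacteria lack, was not well above background in WT IgG-RIP and read 2.12 in WT AGO2-RIP, which is at least 18.9-fold higher. In KO it was measured on both arrays, at 1.66 and 0.93, a difference of 0.73. Mrpl1, a protein of the flexible stalk where transfer RNAs leave, was at least 9.10-fold higher in WT and 4.00-fold higher in KO, and Mrpl28 at least 8.95-fold and at least 2.14-fold. The bound for Mrpl38 was 2.34-fold in WT. These 4 genes are outside the 32 counted in WT.

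At the low end in WT stood Mrpl14, of bacterial descent, whose input level was 3.87, its AGO2-RIP level 0.47 and its IgG-RIP level 2.79. AGO2-RIP was 2.32 below IgG-RIP, or 4.98-fold, and 3.40 below input. In KO it read 3.52, 1.67 and 1.85, a difference of -0.18. Mrps27 (-2.02) and Mrps17 (-1.08) were the other 2 members at least 2-fold lower in WT. Mrps27 was dim in KO IgG-RIP, and Mrps17 had -0.58 in KO. Mrpl37 (-0.97), Mrpl45 (-0.81), Mrpl50 (-0.69), Mrps9 (-0.77) and Mrps18a (-0.68) completed the lowest values in WT.

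In KO the lowest were Mrpl21 and Mrps11, both of bacterial descent. Mrpl21 read 6.01 in KO input, 2.0 with AGO2 and 4.99 with IgG, a difference of -2.99, against 0.13 in WT (3.44 and 3.31). This reading comes from a probe for an Ensembl transcript. The RefSeq probe of Mrpl21 was not well above background on any of the 6 arrays, so the large KO value rests on 1 probe that its other probe could not check. Mrps11 read 1.70, -2.17 and 0.32 in KO, a difference of -2.50, and was dim in WT IgG-RIP, where its bound was on the other side, at least 1.87-fold higher. Mrpl37 (-1.18) and Mrps30 (-1.08) were the other 2 members at least 2-fold lower in KO. Mrps35 was dim in KO AGO2-RIP and was at least 6.28-fold lower there than in IgG-RIP. Mrpl49 (-0.89), Mrpl18 (-0.78), Mrps15 (-0.99) and Mrps16 (-0.66) lay next. The KO highest values not yet named were those of Mrps6 (1.48) and Mrps28 (1.10).

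**Figure D3:**
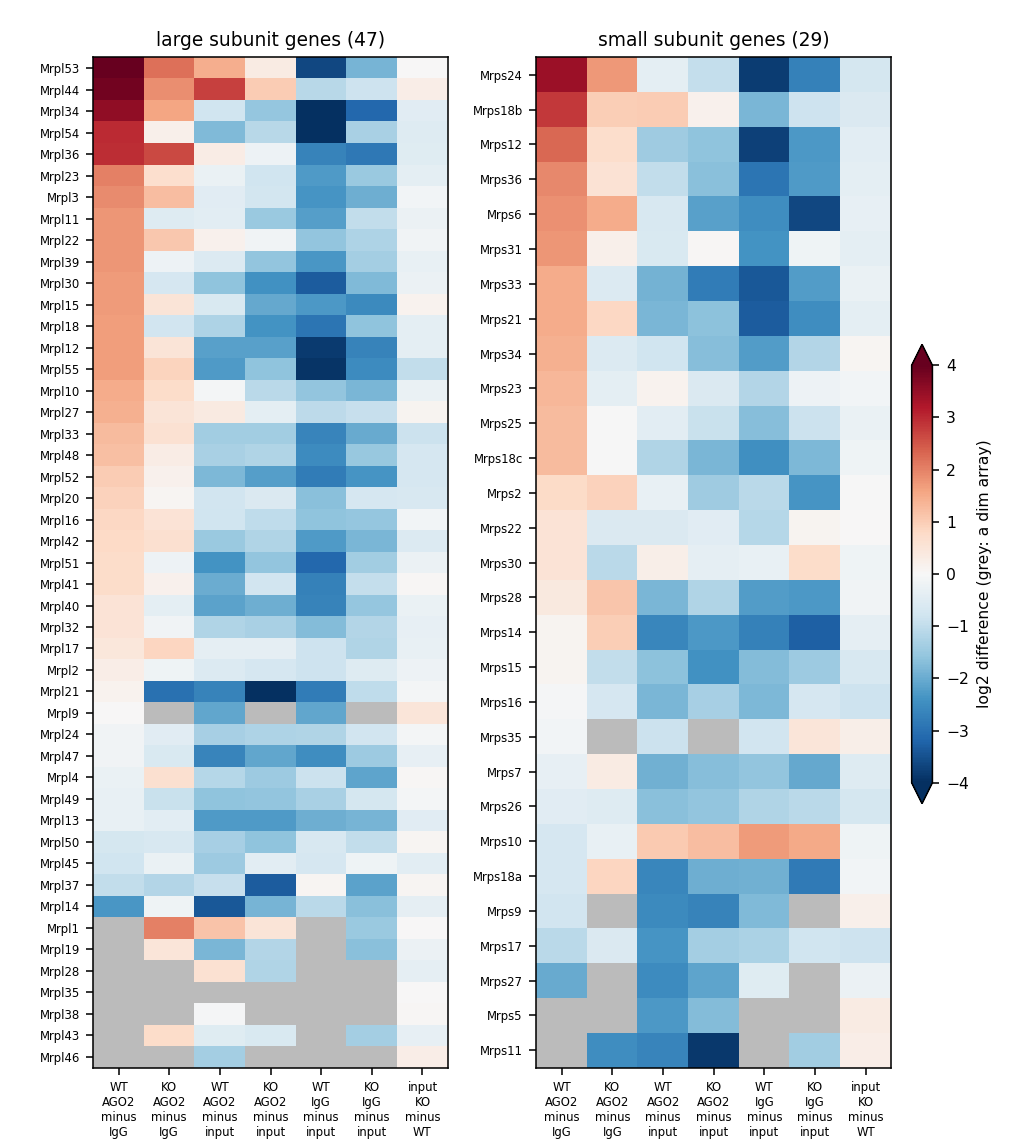
Log2 differences of every mitochondrial ribosomal protein gene (rows, ordered by AGO2-RIP minus IgG-RIP in WT) in 7 comparisons (columns), with red for higher, blue for lower, a colour scale that ends at -4 and 4, and grey where an array was dim. The WT AGO2-RIP minus IgG-RIP column is mostly red (49 of 67 above 0), the columns against input are mostly blue, and Mrps10 is red in all 4 columns against input.

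Both genotypes were measured on all 4 precipitate arrays for 63 members, and the WT and KO differences share no array. Across these 63 genes the 2 differences had a Pearson r of 0.60 and a Spearman rho of 0.55, against a Pearson r of 0.45 over 14058 genes. All arrays shared 1 slide and each gene its probe, and genes are not independent replicates, so the correlation is a description. At least 2-fold higher in both genotypes were 8 members: Mrpl3, Mrpl22, Mrpl34, Mrpl36, Mrpl44, Mrpl53, Mrps6 and Mrps24. They were 8 of the 32 so called in WT (of the 63) and 8 of the 9 so called in KO. In all genes 888 were called in both, of 2936 in WT and 1452 in KO. No member (0 of 63) was at least 2-fold lower in both, and of all genes only 371 of 14058 were.

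The WT difference was larger than the KO difference in 51 of 63 members. The median of WT minus KO was 0.76, against 0.03 over 14058 genes, where 7208 lay above 0. In that direction 25 members (39.7%) differed by at least 2-fold, against 20.2% of all genes, and in the other 2 (3.17%), against 16.5%. The small subunit median was 1.11 (24 genes) and the large subunit median 0.74 (39 genes). The nuclear respiratory chain genes had 0.86 and the cytosolic ribosomal protein genes 0.52. The largest member values were those of Mrpl21 (3.12), Mrpl53 (2.89), Mrpl54 (2.80), Mrpl18 (2.47) and Mrpl30 (2.37), and the lowest those of Mrpl14 (-2.14) and Mrps18a (-1.55). Of these, Mrpl30 shares part of its probe with other probes, as given above.

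**Figure D4:**
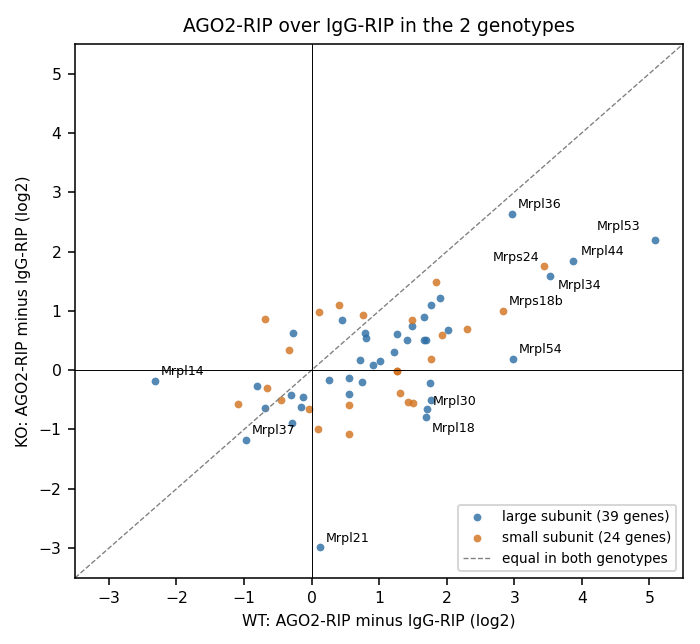
AGO2-RIP minus IgG-RIP (log2) in WT (x axis) and KO (y axis) for the 63 genes measured on all 4 precipitate arrays, by subunit, with the line of equal values dashed. Most points (51 of 63) lie below the line, Mrpl53 is farthest right at 5.08 and 2.19, and Mrpl14 and Mrpl21 stand apart at the left and at the bottom.

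Both precipitates differed between the genotypes. AGO2-RIP levels were lower in KO than in WT, with a median of -0.48 over 71 members, against -0.03 over all genes, and 20 members were at least 2-fold lower (28.2%), against 11% of all genes. IgG-RIP levels were higher in KO, with a median of 0.32 over 64 members, against -0.01, and 10 members were at least 2-fold higher (15.6%), against 11% of all genes. The IgG-RIP share was thus closer to the background than the AGO2-RIP share. The lowest KO minus WT AGO2-RIP values were those of Mrpl37 (0.72 in WT and -1.59 in KO, or -2.32) and Mrpl28 (1.04 and -1.11, or -2.15), and the highest measured IgG-RIP value was that of Mrpl54 (2.92). Of all genes past 2-fold, 38.5% were higher in KO AGO2-RIP under the main scaling, 68.0% with the scaling on probes above background on all arrays and 21.2% with the array median, and the members at least 2-fold lower were 20, 12 and 26. In IgG-RIP 55.3% were higher, and 64.9% with the array median. There 16 members were at least 2-fold higher in KO IgG-RIP and after normexp 5. These 2 comparisons were added after the data were seen.

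Against input, AGO2-RIP was lower for most members in both genotypes. In WT, 75 members had a median of -1.24 (large -1.22, small -1.43), against -0.24 over 14424 genes. At least 2-fold lower were 41 (54.7%), against 26.3% of all genes, and at least 2-fold higher were 5 (6.67%), against 14.8%. In KO, 71 members had a median of -1.43 (large -1.22, small -1.63), against -0.24. At least 2-fold lower were 49 (69.0%), against 26.4%, and at least 2-fold higher were 2 (2.82%), against 14.6%. The cytosolic ribosomal protein genes lay further down, at -2.24 in WT and -1.93 in KO, and the respiratory chain genes near the members, at -1.15 and -1.30. Among all genes past 2-fold, 36.0% in WT and 35.6% in KO were higher. Those shares were 55.5% and 66.7% with the scaling on probes above background on all arrays and 23.5% and 16% with the array median, and the members at least 2-fold lower were 33 and 32 or 48 and 58.

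The 5 members at least 2-fold above input in WT AGO2-RIP were Mrpl44 (2.75), Mrpl53 (1.44), Mrpl1 (1.13), Mrps10 (1.04) and Mrps18b (1.01). In KO they were Mrps10 (1.23) and Mrpl44 (1.01), and Mrpl1 had 0.52, Mrpl53 0.32 and Mrps18b 0.17. The lowest in WT were Mrpl14 (-3.40), Mrpl21 (-2.67), Mrpl47 (-2.65), Mrps11 (-2.64), Mrps18a (-2.62) and Mrps14 (-2.60). In KO they were Mrpl21 (-4.01), Mrps11 (-3.87), Mrpl37 (-3.32), Mrps33 (-2.80) and Mrps9 (-2.68). A member could therefore be above IgG-RIP and below input at once. Of the 67 members measured on all 3 WT arrays, 41 (61.2%) had AGO2-RIP between IgG-RIP and input, against 26.5% of 13137 genes, and 8 (11.9%) had it above both, against 21.8%. In KO 32 of 67 lay between (47.8%, against 21.9%) and 5 above both (7.46%, against 19.1%). The 8 above both in WT were Mrpl22, Mrpl27, Mrpl36, Mrpl44, Mrpl53, Mrps18b, Mrps23 and Mrps30. The 5 in KO were Mrpl1, Mrpl44, Mrpl53, Mrps18b and Mrps31, so Mrpl44, Mrpl53 and Mrps18b were in both sets.

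IgG-RIP was further below input. In WT 57 of 67 members were at least 2-fold lower (85.1%), against 37% of all genes, with a median of -2.09 (large -2.28, small -1.79). In KO 48 of 68 were (70.6%), against 28.8%, with a median of -1.48 (large -1.51, small -1.41). Among all genes past 2-fold, 33.5% in WT and 37.8% in KO were higher, 62.2% and 68.9% with the scaling on probes above background on all arrays and 17.8% and 19.2% with the array median. The members at least 2-fold lower were then 40 and 30 or 64 and 60. The lowest in WT were Mrpl54 (-4.74), Mrpl34 (-4.34), Mrpl55 (-3.92), Mrpl12 (-3.84), Mrps24 (-3.81) and Mrps12 (-3.72), and in KO Mrps6 (-3.66), Mrps14 (-3.27) and Mrpl34 (-3.14). Several of the members with the largest AGO2-RIP over IgG-RIP values, such as Mrpl34, Mrpl54, Mrps24 and Mrps12, were also among the lowest here. Both values use the same IgG-RIP array with opposite sign, so such an overlap follows in part from how they are computed. The AGO2-RIP levels of these members lay below input.

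Differences from input went with where the probe lies in the transcript, for the precipitates and for KO input. Across 67 members in WT, IgG-RIP minus input and the start of the probe in its transcript had a Pearson r of 0.54 and a Spearman rho of 0.60, and across 68 members in KO of 0.38 and 0.40. Over all genes with a position the Spearman rho was 0.30 in WT (10624 genes) and 0.24 in KO (11338 genes). Members whose probes start later lay less far below input. For AGO2-RIP minus input the members' rho was 0.26 in WT and 0.31 in KO, against 0.33 and 0.29 over all genes, and for KO minus WT input it was 0.33, against 0.25. For AGO2-RIP minus IgG-RIP the members' rho was -0.26 in WT and -0.07 in KO. Probe GC content had rho values of 0.16 and 0.02 with IgG-RIP minus input. The genes share the arrays and differ in transcript length, and the part of probe position in the differences was not tested.

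**Figure D5:**
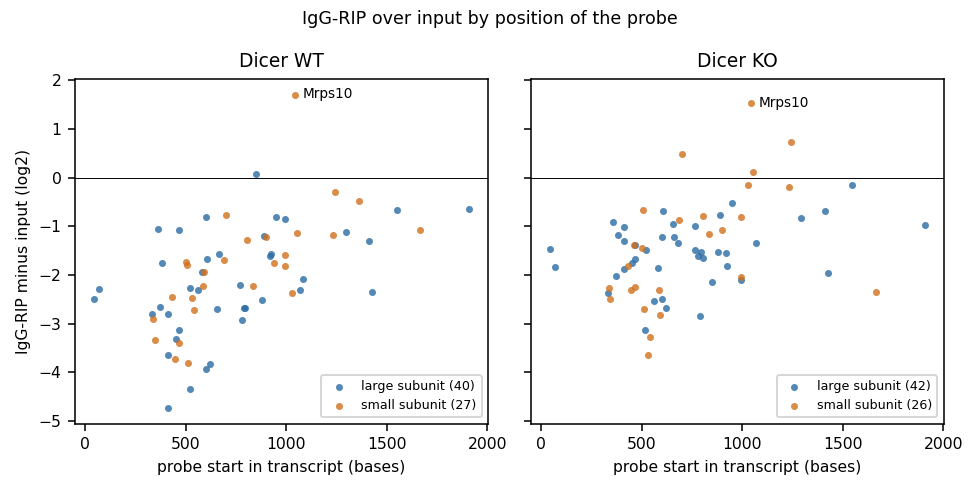
IgG-RIP minus input (log2, y axis) against the base of the transcript at which the probe starts (x axis) for the measured members in WT (67 genes) and KO (68 genes), by subunit. Values lie higher for probes that start later (Spearman rho 0.60 in WT and 0.40 in KO), and Mrps10 lies above 0 in both.

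Mrps10, a small subunit protein of bacterial descent, ran against the other members. Its WT levels were 5.44 before precipitation, 6.48 with AGO2 and 7.14 with IgG, and its KO levels 5.26, 6.49 and 6.79. The precipitates were higher than input in both genotypes, by 1.71 in WT and 1.53 in KO for IgG-RIP and by 1.04 and 1.23 for AGO2-RIP, and IgG-RIP was the higher of the 2. It was the only member at least 2-fold higher in IgG-RIP than in input in either genotype. Its single probe was given above, and no second probe was there to set beside it. Shared runs were sought only as exact matches of 20 bases between probes of the array. Whether the Mrps10 probe also reads other transcripts, such as ones with a similar but not equal sequence, was therefore not tested. Mrps30 had IgG-RIP minus input values of -0.30 in WT and 0.72 in KO. Outside the members Mtif2, a mitochondrial translation initiation factor, gave the same order as Mrps10 in both genotypes, with WT levels of 6.39 before precipitation, 7.46 with AGO2 and 8.51 with IgG and KO levels of 6.39, 8.00 and 8.06.

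A fit over both genotypes (limma, fraction plus genotype, Benjamini-Hochberg adjusted over 18898 genes, two-sided) tested the fractions with the difference between genotypes as the error, on 2 residual degrees of freedom. For AGO2-RIP minus IgG-RIP, limma called 0 members and 0 genes at an adjusted p under 0.05. On simulated data with this fit's residual spread, it called 0 of 50 genes changed by 1 log2 and 5 of 50 changed by 2. It called 32 of 50 changed by 3 and 49 of 50 changed by 4. The 0 calls therefore do not show that the fractions were alike. At an unadjusted p under 0.05, 18 of the 76 members were higher and none was lower. Of the 18898 genes tested, 3556 had such a p in either direction. How many of these were higher is not given, so the 18 members have no background in their own direction. The lowest adjusted p of a member was that of Mrpl36 (2.80, SE 0.38, adjusted p = 0.0782), higher in 2 of 2 genotypes. Mrpl53 had 3.64 (SE 0.73) and Mrpl44 2.86 (SE 0.60). When only genes above background on all 6 arrays were fitted, 5 members passed, all higher: Mrpl34, Mrpl36, Mrpl44, Mrpl53 and Mrps24. In that fit 577 of the 12389 genes passed. After normexp 1 member and 263 genes passed. The count also moved with 1 array left out, as given below.

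For AGO2-RIP minus input, the limma fit called 5 of the 76 members, all lower: Mrpl12, Mrpl13, Mrpl47, Mrpl52 and Mrps14. Of all genes 5.75% were called lower and 4.45% higher, so the share of members called lower was near the background. Mrpl13 fell by 2.26 (SE 0.37, adjusted p = 0.0380) and Mrps14 by 2.44 (SE 0.42, adjusted p = 0.0389), each lower in 2 of 2 genotypes. After quantile normalization 0 members and 0 genes were called. On genes above background on all 6 arrays 36 members were called, and 3709 of the 12389 genes. The count also moved with 1 array left out, as given below.

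For IgG-RIP minus input, the limma fit called 41 of the 76 members lower (26 large, 15 small) and 1 higher. Of all genes 15.8% were called lower and 14.3% higher. Of the 42 called members 34 were above background on all 6 arrays, and the other 8 (Mrpl1, Mrpl9, Mrpl19, Mrpl28, Mrpl35, Mrpl46, Mrps5 and Mrps9) were dim on at least 1, so that their fitted size is no measure of the difference. Mrpl34 fell by 3.74 (SE 0.56, adjusted p = 0.0202), Mrpl12 by 3.26 (SE 0.47, adjusted p = 0.0202) and Mrps12 by 3.01 (SE 0.53, adjusted p = 0.0221). The gene called higher was Mrps10 (1.62, SE 0.38, adjusted p = 0.0335). With 1 array left out the count of members called moved, as given below. For KO minus WT over the 3 fractions limma called 0 members and 0 genes. At an unadjusted p under 0.05 there were 3 of the 76 members and 840 of the 18898 genes.

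Members with more than 1 measured probe allow a check of single probes. For AGO2-RIP minus IgG-RIP in WT, 14 of 18 other probes (17 genes) had the sign of the brightest probe, and in KO 15 of 19 (18 genes). Of the 12 such probes whose gene was past 2-fold in WT, 8 were past 2-fold the same way. Where the brightest probe was past 2-fold, no other probe was past 2-fold the opposite way in any of the 7 comparisons (0 in each). Where it was not, some were. The other Mrpl41 probe had -1.03 for AGO2-RIP minus IgG-RIP in WT, where the brightest had 0.72. In KO it had 3.08 against -0.78 for AGO2-RIP minus input and 1.87 against -0.95 for IgG-RIP minus input. The other Mrps25 probe had 1.03 against -0.86 for IgG-RIP minus input in KO.

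Other genes of the mitochondrial translation system were followed from lists. Of 7 mitoribosomal proteins with other names, Dap3 and Ict1 had the largest AGO2-RIP minus IgG-RIP in WT, at 2.52 and 2.42, with 0.12 and 1.52 in KO, and Ptcd3 and Aurkaip1 the lowest, at -1.76 and -0.57 in WT with -0.20 and 0.01 in KO. The list's median was 0.38 in WT, with 3 at least 2-fold higher and 1 lower, and 0.01 in KO. The 11 translation factors measured in WT had a median of 0.11, with 2 past 2-fold upward and 3 downward. Slirp, a partner of Lrpprc in holding mitochondrial messages, had 3.92 in WT and 1.48 in KO, and Oxa1l, which inserts newly made proteins into the inner membrane, 2.50 and 0.81. Mtif3 (-1.11 in WT) and Mtrf1 (-1.06 in WT and -0.25 in KO) were lowest. The 13 assembly factors measured in WT had a median of 0.07, with 2 at least 2-fold higher and 5 lower, from Rbfa (-2.23) to Mterfd2 (1.23). The 11 aminoacyl-tRNA synthetases, which charge transfer RNAs, had one of -0.60, with 4 higher and 5 lower, from Yars2 (-2.08) to Sars2 (1.79). The 6 measured genes of mitochondrial transcription and replication had 0.38, with 2 higher and 0 lower. Tfb2m, a mitochondrial transcription factor, had 2.17 and 1.31, and Ssbp1, which binds single-stranded mitochondrial DNA, -0.83 and 0.20. The medians of these lists lay below the members' WT median of 0.81, and no test of the difference was run. In KO the translation factors had a median of 0.19, level with the members' 0.19. The assembly factors had -0.07 there, the synthetases -0.21 and the transcription and replication genes -0.21.

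Of 9 regulators of nuclear genes for mitochondria, 7 were measured in each genotype. Their medians were 1.51 in WT and 1.66 in KO, with 5 at least 2-fold higher in each. Myc had 2.81 in WT and 2.66 in KO, Yy1 1.82 and -0.01, and Nrf1, which binds many such promoters, 1.69 and 1.66. Gabpa was the lowest in WT, at -1.08 with 0.50 in KO. Ppargc1a was not well above background on any array. Esrra, a nuclear receptor of this programme, had 1.26 in WT and 4.71 in KO.

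Promoters of the members were read from RefSeq (assembly GRCm38.p6, 250 bases before to 50 after the start) for the 67 of 76 with an entry. The letters searched, on both strands, were GCATGCGC for NRF1, CCGGAAG for ETS factors such as GABP, AAGATGGC for YY1 and TGACGTCA for the CRE. At least 1 of the first 3 was in 35 of 67 promoters (52.2%), against 13.8% of 27025 promoters and 49.2% of those of 61 cytosolic ribosomal protein genes. NRF1 letters were in 8 members (11.9%, against 2.8%), ETS letters in 23 (34.3%, against 9.12%), YY1 letters in 12 (17.9%, against 2.88%) and CRE letters in 2 (2.99%, against 1.88%). By subunit, NRF1 letters were in 7 of 41 large and 1 of 26 small subunit promoters and ETS letters in 12 and 11. The members' promoters had a median GC content of 58%, against 52.67%, and the first 2 motifs are rich in GC. Of the 12 YY1 matches 8 begin after the start, within the first 36 bases. The promoters of Mrpl32, which holds most NRF1 matches, of Mrps18b, which holds NRF1 and ETS letters, and of Mrps11 are shown, with matches in capitals.
Mrpl32: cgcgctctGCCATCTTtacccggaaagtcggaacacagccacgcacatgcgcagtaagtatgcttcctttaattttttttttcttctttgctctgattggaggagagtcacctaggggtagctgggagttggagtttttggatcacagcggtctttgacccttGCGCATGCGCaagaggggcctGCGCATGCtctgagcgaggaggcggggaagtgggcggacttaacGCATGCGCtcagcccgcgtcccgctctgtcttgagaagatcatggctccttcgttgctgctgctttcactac
Mrps18b: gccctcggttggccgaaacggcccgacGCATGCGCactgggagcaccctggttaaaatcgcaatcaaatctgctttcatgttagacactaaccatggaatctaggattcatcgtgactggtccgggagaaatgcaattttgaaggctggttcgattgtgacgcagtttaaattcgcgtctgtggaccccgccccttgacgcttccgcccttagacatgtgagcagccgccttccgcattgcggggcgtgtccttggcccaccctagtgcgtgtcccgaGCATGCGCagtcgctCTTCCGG
Mrps11: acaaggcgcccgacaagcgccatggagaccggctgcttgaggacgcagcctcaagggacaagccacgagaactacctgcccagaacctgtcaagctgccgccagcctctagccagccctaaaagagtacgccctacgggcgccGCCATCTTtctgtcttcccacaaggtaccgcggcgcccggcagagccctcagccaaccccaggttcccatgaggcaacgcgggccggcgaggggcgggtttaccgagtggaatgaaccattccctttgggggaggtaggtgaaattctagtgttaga

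In GRCm38.p6 these windows lie on chromosome 13 at 14612988 to 14613287 (Mrpl32, minus strand), on chromosome 17 at 35916391 to 35916690 (Mrps18b, minus strand) and on chromosome 7 at 78782881 to 78783180 (Mrps11, plus strand). Mrpl32 has 4 NRF1 matches, of which 2 overlap because the letters read on both strands. The Mrps11 window overlaps that of Mrpl46, a large subunit gene on the other strand, by 141 bases, so a small and a large subunit gene start head to head there. KO minus WT input was 0.27 for both genes, and AGO2-RIP minus input in WT was -2.64 for Mrps11 and -1.34 for Mrpl46. Mrpl46 was dim on both IgG-RIP arrays and on the KO AGO2-RIP array. A match of letters is a description of the sequence, and no binding was measured here.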

How the data were processed

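For each of the 6 arrays the authors deposited a 1-colour scanner table written by Agilent's Feature Extraction 10.7.3.1, per the file headers. Its processed signal is a linear intensity from which the background was already subtracted, per the file headers, with no scaling between arrays. Per the labels' protocols, the RNA was amplified first, then 500 ng of the cDNA was digested and labelled with random primers, which can weight transcripts unequally.

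Of 55681 non-control probes, 54 with outlier spots were left out, and spots of a probe were averaged. Levels are log2 intensity minus the array's 75th percentile. A gene was measured where it was well above background on each array compared. Where 1 array was dim, a bound was taken against the higher of the dim value and the lowest signal well above background there. Plain differences carry no test, and past 2-fold is a size. Fits took the genes well above background on 2 or more arrays, in limma 3.58.1 under R 4.3.3, and were tested on simulated data. Python 3.11.15 with numpy 2.4.6, pandas 2.3.3, scipy 1.17.1 and matplotlib 3.10.9 did the rest.

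The members, lists and alternatives were chosen with earlier results of these data known. Named genes are the 4 highest and 4 lowest members of each subunit per comparison (fewer where stated), a list of role genes, members called in a fit, and the highest and lowest genes of other lists. Genes outside this were chosen after their values were seen. Alternatives were other scalings, normexp (offset 50), other filters, other probe summaries, 10 bins of probe GC, subunits by structure, a 1.5-fold threshold, and leaving out each array.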

Additional observations from a re-analysis of the deposited data

Results flagged for a closer look

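A few members moved opposite ways in the genotypes, by at least 1.5-fold each way, under the same contrast. With 1 array per group the differences were not tested. For AGO2-RIP minus IgG-RIP these were Mrpl18 (1.69 in WT and -0.78 in KO, a WT minus KO difference of 2.47), Mrpl30 (1.71 and -0.66, a difference of 2.37, while its other probe gave 1.61 and -0.17) and Mrps18a (-0.68 and 0.86, a difference of -1.55). For AGO2-RIP minus input it was Mrpl28 (0.60 and -1.20, a difference of 1.80).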

How the results depend on the processing

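The gap between the members' median and that of all genes is fixed under scalings by 1 constant per array and under another fold threshold. Under the 7 other alternatives (quantile, normexp, 2 filters, probes, GC and subunits) it kept its sign in each comparison, except KO minus WT input, where it was -0.18 and became 0.078 without the filter. The 66 named member values past 2-fold kept their sign in all 345 recomputed values. They were taken for being past 2-fold, many as the highest or lowest, so a kept sign follows in part from that choice. Moves of the gap beyond 0.24, the highest spot noise of a difference, were as follows. It was 1.74 without the filter for AGO2-RIP minus IgG-RIP in WT (from 1.06). For AGO2-RIP minus input it was -0.72 (quantile), -0.73 (normexp), -0.70 (no filter) and -0.61 (median of probes) in WT and -0.94 (quantile) in KO. For IgG-RIP minus input it was -1.35, -1.27, -2.14 and -1.34 under the same settings in WT and -1.81 without the filter in KO.

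The difference of the subunit medians changed sign in some comparisons and kept it in others. For AGO2-RIP minus IgG-RIP it went from 0.41 to -0.0015 (genes above background on all 6 arrays) and -0.19 (median of probes) in WT and from 0.26 to -0.006 (no filter) and -0.10 (median of probes) in KO. For AGO2-RIP minus input in WT it went from 0.21 to -0.14 and 0.59 under those first 2 settings. In KO it kept its sign, going from 0.41 to 0.16 (normexp) and 0.10 (all 6 arrays). For IgG-RIP minus input in WT it kept its sign, going from -0.49 to -0.22 (quantile), -0.072 (normexp) and -0.047 (median of probes). In KO it went from -0.095 to 0.27 (no filter) and 0.37 (median of probes).

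Counts of members past the threshold also moved. With the percentile over probes above background on all arrays, 32 members were lower in AGO2-RIP than input and 30 lower in IgG-RIP than input in KO. At 1.5-fold, 11 members (14.5%, against 9.64% of all genes) were lower in KO than WT input and 25 (37.3%, against 18.5%) higher in AGO2-RIP than IgG-RIP in KO, where normexp at 2-fold gave 4.

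In the limma fits, AGO2-RIP minus IgG-RIP called 1 member and 263 genes after normexp, 5 and 577 on genes above background on all 6 arrays, 154 genes without the genotype term, and 0 to 6 members and 0 to 524 genes with 1 array left out. AGO2-RIP minus input called 22 members (array median), 1 (percentile over probes above background), 0 (quantile, with 0 genes), 34 (normexp, 3640 genes), 2 (no filter, 1004 genes), 36 (all 6 arrays, 3709 genes) and 19 (no genotype term, 3256 genes), and 0 to 33 members and 0 to 4659 genes with 1 array left out. IgG-RIP minus input called 20 members (percentile over probes above background) and 23 (quantile, 3283 genes), and 0 to 52 members and 0 to 7292 genes with 1 array left out. KO minus WT called 2 genes after normexp and 0 to 1 with 1 array left out. With 1 array left out, the lone array of a fraction is assumed to vary like the others. The causes were not tested.

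No paired analysis was possible because each group has 1 array and so no replicate numbers to pair. The genotype term of the limma fits, dropped in 1 alternative, already sets the fractions against each other within genotype. Leaving out pseudogene names gave no separate value, since 0 of the 76 members carry one. The added comparisons of KO with WT precipitates were chosen after seeing the data. With 1 array per group, single-array differences have only spot noise as a measured error, the limma fits take the disagreement of the genotypes as theirs, and members dim on an array have only a bound there.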
